A study of Mus musculus with 6 samples.

Results

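The keratins of luminal and basal prostate epithelium were described across bulk RNA-seq of the prostate lobes. The set holds 10 genes chosen by symbol (KRT4, KRT5, KRT6A, KRT7, KRT8, KRT14, KRT15, KRT17, KRT18 and KRT19 as the deposited table spells them, Krt4 and so on below) of the 24908 genes listed, and all 10 were measured in all 6 libraries. Each library is the anterior prostate (AP), dorsolateral prostate (DLP) or ventral prostate (VP) of 1 wild-type mouse (WT) or 1 Hi-MYC littermate (MYC), both male FVB mice, 12 weeks old and fed a purified diet. The MYC mouse is heterozygous for a human c-MYC transgene that the probasin-derived ARR2Pb promoter drives in prostate epithelium. RNA came from whole lobes dissociated with enzymes into a cell suspension, so that stromal, immune and endothelial cells are in each library beside the epithelium. There is 1 library per lobe and genotype, with no replicates and therefore no p-value. The effect of genotype and that of the single animal behind each genotype cannot be told apart.

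Keratins are the intermediate filament proteins of epithelial cells. A filament is built from heterodimers of an acidic type I keratin (here Krt14, Krt15, Krt17, Krt18 and Krt19) with a basic type II keratin (Krt4, Krt5, Krt6a, Krt7 and Krt8), and the partners expressed tell epithelial layers apart. In the prostate, secretory luminal cells carry the simple epithelial pair Krt8 and Krt18, whereas the basal cells beneath them carry Krt5 and Krt14 together with Krt15 and Krt17. Krt19 and Krt7 are found in cells described as intermediate and in ducts, Krt4 in luminal cells of the proximal ducts with progenitor features, and Krt6a is a keratin of stressed, healing or hyperproliferative stratified epithelium.

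The genes lie in the type II cluster on chromosome 15 and the type I cluster on chromosome 11, except that Krt18 lies at the end of the type II cluster. In RefSeq on the assembly GRCm38.p6 (mm10, the build in the submitters' processing notes), Krt8 (gene 16691) spans chr15:101996711-102004342 on the minus strand and Krt18 (gene 16668) spans chr15:102028216-102032026 on the plus strand, so that the partners are transcribed away from each other. Their promoters, from 250 bases before to 50 bases after the RefSeq start, are shown because the profiles of these genes over the libraries were nearer to each other than those of any other members. Krt8 is at chr15:102004293-102004592 and Krt18 at chr15:102027966-102028265, both written on the strand of the gene, and capitals mark matches to TATAAA on either strand, which overlap each other.
Krt8: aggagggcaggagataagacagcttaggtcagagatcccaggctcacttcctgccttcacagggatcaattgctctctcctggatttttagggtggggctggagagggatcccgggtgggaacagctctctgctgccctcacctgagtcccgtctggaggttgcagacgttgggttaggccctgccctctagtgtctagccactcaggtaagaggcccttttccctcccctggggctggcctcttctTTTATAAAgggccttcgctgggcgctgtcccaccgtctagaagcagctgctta
Krt18: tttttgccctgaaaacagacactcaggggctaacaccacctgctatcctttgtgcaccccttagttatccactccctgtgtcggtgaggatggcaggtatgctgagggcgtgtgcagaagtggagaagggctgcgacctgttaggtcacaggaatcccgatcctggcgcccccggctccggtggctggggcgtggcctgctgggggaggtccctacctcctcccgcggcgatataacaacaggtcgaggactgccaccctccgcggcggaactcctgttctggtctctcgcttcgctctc
The letters TATAAA were found in the Krt8 window and not in the Krt18 window. The Krt8 matches begin at bases -3 and -1 counted from the RefSeq start, so that they run across it. Of 27025 RefSeq promoter windows of the same length, 14.2% hold TATAAA on either strand. Neither window holds CACGTG, a sequence that MYC is known to bind, which 7.24% of all windows hold. A promoter window was listed for 5 of the 10 members (Krt5, Krt7, Krt8, Krt14 and Krt18), and none of the 5 windows holds CACGTG. A sequence that Sp1 is known to bind, GGGCGG, was found on either strand in 1 of them, Krt7, and in 35.9% of all windows. The Krt14 window (chr11:100205981-100206280, minus strand) lies inside the span of its gene (chr11:100203162-100207510). It therefore does not cover the outermost start of Krt14, and its lack of these letters does not speak for that start. No match says only that these letters are not in the window.

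Krt6a (gene 16687, chr15:101689928-101694305) and Krt6b are near copies, which limits how reads can be told apart. The first 90 coding bases are shown for that reason, from the GENCODE M1 transcripts, with the bases that differ in capitals.
Krt6a: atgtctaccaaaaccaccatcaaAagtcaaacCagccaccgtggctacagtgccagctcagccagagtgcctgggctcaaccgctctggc
Krt6b: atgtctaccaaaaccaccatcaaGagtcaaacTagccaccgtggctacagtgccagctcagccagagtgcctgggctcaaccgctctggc
These stretches differ at 2 positions, and the aligned coding sequences are 97.8% identical, with a longest identical run of 280 bases. Of all possible 75-base reads of the Krt6a transcript, 36.5% are also found in Krt6b. Among the other members, 4.73% of Krt5 reads are found in Krt6a and 5.91% of Krt14 reads in Krt16, and no 75-base read of Krt4, Krt7, Krt8, Krt15, Krt17, Krt18 or Krt19 is found in a protein-coding transcript of another gene of that annotation.

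Levels are given in FPKM, read counts scaled by transcript length and by library depth, so that levels can be set side by side between genes. Ratios between libraries are log2 ratios of FPKM + 1, and a gene was called at 2-fold. The background is the share of genes called among the 12361 whose mean reached 1 FPKM, and all 10 keratins passed this minimum. Estimated depth was between 25500000 reads in WT AP and 50200000 reads in MYC AP, and the lowest value of a member, Krt6a in WT VP, rests on an estimated 136 reads. Marker genes of prostate luminal cells were present in every library, with Epcam between 274.1 and 411.3 FPKM and Foxa1 between 88.3 and 165.4 FPKM. MYC AP stood apart in a list of 8 seminal vesicle genes, which summed to 524 FPKM there, 11.3 FPKM in MYC DLP and at most 0.186 FPKM in the other libraries. No value of the AP comparison could be had without MYC AP, and the part of seminal vesicle tissue in it was not tested.

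The luminal pair was highest in the VP of both mice and changed little with genotype. Krt8 had 399.9, 445.7 and 1292 FPKM in WT AP, DLP and VP, and 387.9, 531.1 and 1101 FPKM in MYC AP, DLP and VP. Krt18 had 548.7, 525.8 and 1611 FPKM in the WT lobes and 447.6, 610.7 and 1313 FPKM in the MYC lobes, in the same order. For both genes the VP libraries lay above all 4 libraries of the other lobes. Between WT VP and WT AP the difference was 3.23-fold for Krt8 and 2.94-fold for Krt18, and between WT VP and WT DLP it was 2.90-fold and 3.06-fold. MYC against WT in the same lobe gave log2 ratios between -0.23 and 0.25 for Krt8 and between -0.29 and 0.22 for Krt18. The direction in these lobes was the same under 3 other scalings of the libraries, but their size was close to what a scaling moved. With sums made equal without the 20 highest genes, the median of all genes went from 0.04 to -0.18 in VP and the ratio of Krt8 reached -0.50. In bulk tissue, fewer cells of a type and less RNA per cell cannot be told apart.

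The basal keratins were lowest in the VP, where the luminal pair was highest. Krt14 had 760.5, 378.2 and 158.3 FPKM in WT AP, DLP and VP, and 333.1, 438.1 and 104.9 FPKM in MYC AP, DLP and VP. Krt5, its type II partner, had 108.9, 114.7 and 33.0 FPKM in the WT lobes and 109.2, 244.9 and 32.1 FPKM in the MYC lobes. Both genes were lowest in the VP in each mouse, but they did not peak together: Krt14 was highest in WT AP and Krt5 in MYC DLP. Krt17, a keratin of basal cells and of activated epithelium, had 874.7, 546.6 and 288.2 FPKM in WT AP, DLP and VP and 322.1, 705.7 and 174.7 FPKM in MYC AP, DLP and VP. Krt15, a basal keratin linked to stem cells of stratified epithelia, had 461.6, 421.2 and 213.0 FPKM in the WT lobes and 397.8, 589.4 and 140.5 FPKM in the MYC lobes. All 4 basal keratins thus had their lowest value of all in MYC VP, and as deposited WT VP was the next lowest for each. With size factors from medians of ratios, MYC AP was below WT VP for Krt17 (log2 ratios of -1.59 and -1.52 against WT AP).

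**Figure D1:**
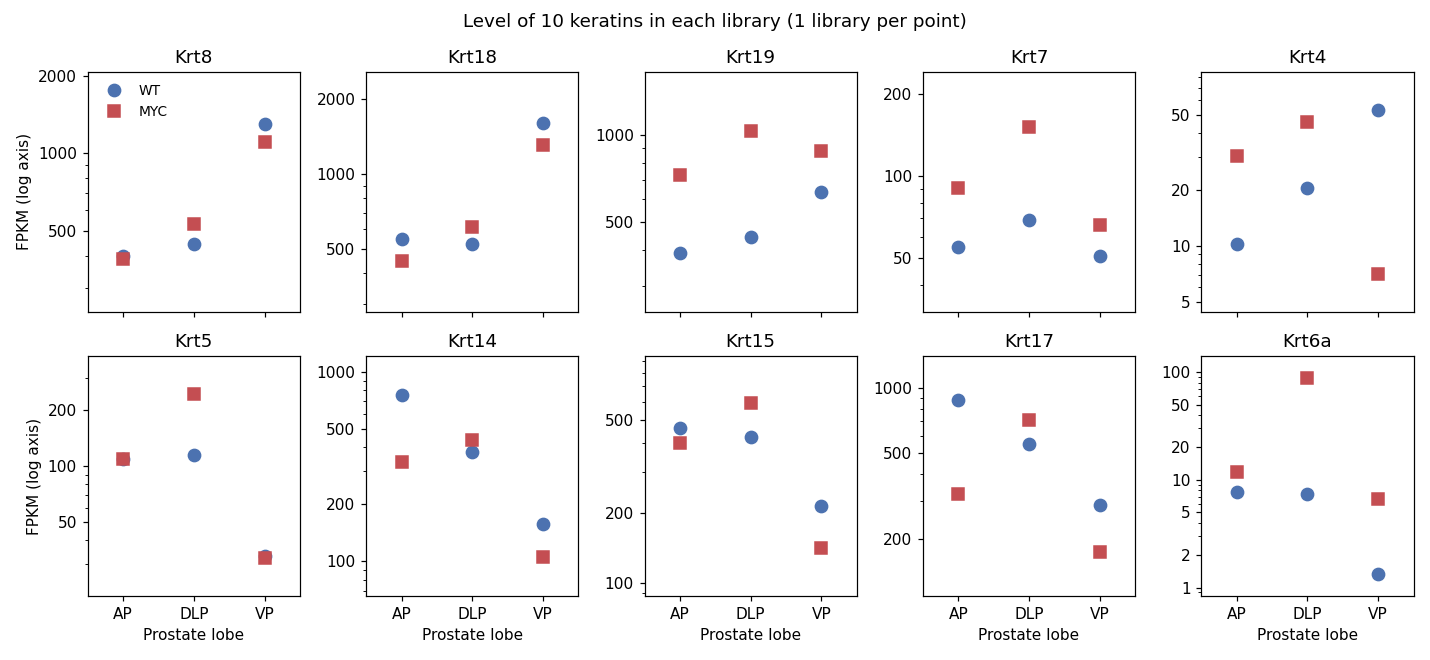
FPKM of each keratin (log axis, own range per panel) against lobe, with WT libraries as circles and MYC libraries as squares, 1 library per point. Krt8 and Krt18 sit highest in the VP of both mice, the basal keratins sit lowest there, and Krt6a reaches 88.3 FPKM in MYC DLP against at most 11.9 FPKM elsewhere.

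Counted over the WT lobes, 3 of the 10 keratins (Krt8, Krt18 and Krt4) were at least 2-fold higher in VP than in AP, where 7.89% of all genes were, and 5 (Krt5, Krt14, Krt15, Krt17 and Krt6a) were at least 2-fold lower, where 10.3% were. Against WT DLP, the same 3 genes were higher in WT VP (2.63% of all genes) and Krt5, Krt14 and Krt6a were lower (6.29%). Krt15 and Krt17 fell short of the threshold in that comparison, with log2 ratios of -0.98 and -0.92. WT DLP and WT AP differed in 1 member only, Krt14, which was 2.01-fold lower in DLP (1.31% of all genes were lower, and 3.85% were higher with no member among them). In the MYC mouse, Krt8 and Krt18 were again at least 2-fold higher in VP than in AP (8.98% of all genes) and Krt4, Krt5, Krt14 and Krt15 lower (16.1%). Against MYC DLP, Krt8 and Krt18 were higher in MYC VP (3.54%) and the 7 others except Krt19 were lower (14.0%). With equal sums of FPKM, neither Krt8 nor Krt18 reached 2-fold between MYC VP and MYC DLP (log2 ratios of 0.95 and just under 1). MYC DLP had Krt5, Krt17 and Krt6a at least 2-fold above MYC AP (4.54%) and no member below (3.49%), and Krt6a alone stayed above with equal sums of FPKM.

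Ratios inside a library do not depend on its scaling. The summed FPKM of Krt5 and Krt14 over that of Krt8 and Krt18 was 0.917, 0.507 and 0.0659 in WT AP, DLP and VP, and 0.529, 0.598 and 0.0568 in MYC AP, DLP and VP. The basal share was thus lowest in VP in both mice. With these sums, MYC and WT differed most in AP, where the ratio in MYC was 0.577 of that in WT, while it was 1.18 times that of WT in DLP and 0.862 in VP. The choice of genes mattered in each lobe. In AP, Krt14 over Krt18 was 1.39 for WT and 0.744 for MYC, whereas Krt5 over Krt8 was 0.272 and 0.281. In DLP, Krt14 over Krt18 was 0.719 and 0.717, whereas Krt5 over Krt8 was 0.257 for WT and 0.461 for MYC, so that by Krt5 over Krt8 the mice differed most in DLP. In VP the direction turned, since Krt14 over Krt18 was lower in MYC (0.0982 for WT and 0.0799 for MYC) and Krt5 over Krt8 was higher (0.0255 and 0.0292).

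Within the pairs, Krt8 over Krt18 stayed between 0.729 (WT AP) and 0.870 (MYC DLP), a spread of 1.19-fold over the 6 libraries. Krt5 over Krt14 ranged from 0.143 in WT AP to 0.559 in MYC DLP, a spread of 3.91-fold, and was higher in MYC than in WT in each lobe, by 2.29-fold in AP, 1.84-fold in DLP and 1.47-fold in VP. Krt14 thus exceeded Krt5 in every library. Summed over all keratins of the table, type I exceeded type II by 5.32-fold in WT AP and 2.12-fold in WT VP, with the other libraries in between.

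**Figure D2:**
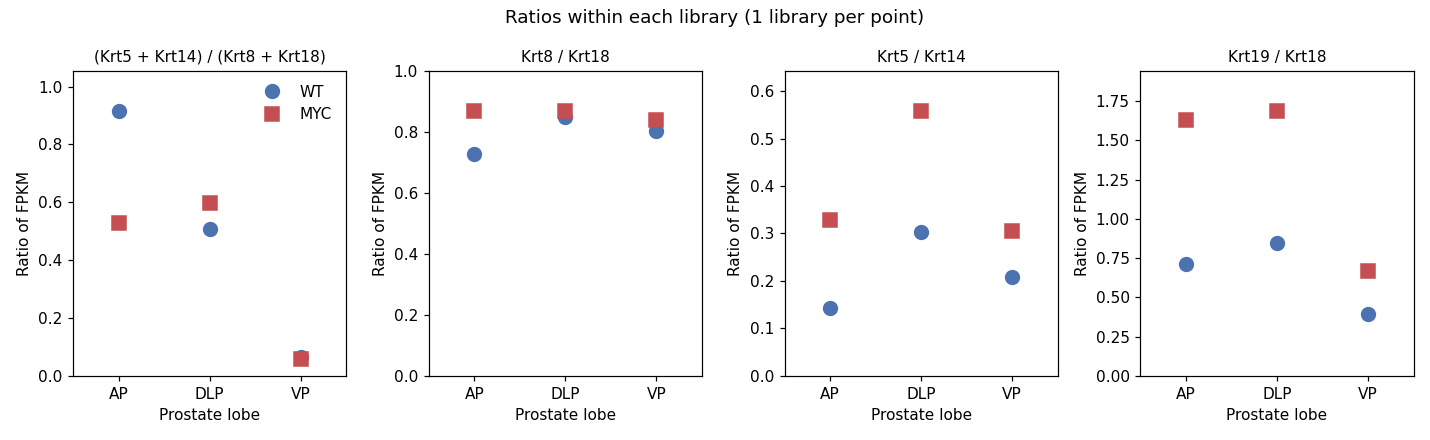
Ratios of FPKM within each library against lobe, with WT as circles and MYC as squares, 1 library per point, on linear axes that start at 0. Krt8 over Krt18 lies between 0.729 and 0.870, whereas the ratio of basal to luminal keratins spans 0.0568 to 0.917 and Krt19 over Krt18 is higher in MYC in each lobe.

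Krt19, a type I keratin of simple and ductal epithelium, was higher in the MYC library of each lobe. It had 390.8, 443.6 and 634.6 FPKM in WT AP, DLP and VP, and 728.0, 1035 and 878.9 FPKM in MYC AP, DLP and VP. As deposited, the 3 MYC libraries were above the 3 WT libraries, but with size factors from medians of ratios WT VP was above MYC AP (log2 ratios of 0.78 and 0.74 against WT AP). The ratio of MYC to WT was 1.86-fold in AP, 2.33-fold in DLP and 1.38-fold in VP, and the log2 ratio in VP was between 0.20 and 0.47 over the scalings tried. Relative to Krt18 in the same library, Krt19 went from 0.712 to 1.63 in AP, from 0.844 to 1.69 in DLP and from 0.394 to 0.669 in VP. Krt7, a type II keratin of simple and glandular epithelium, had 55.0, 69.4 and 50.8 FPKM in the WT lobes and 90.6, 151.4 and 66.1 FPKM in the MYC lobes. It was above WT in each lobe of the MYC mouse, by 1.65-fold, 2.18-fold and 1.30-fold in AP, DLP and VP, although MYC VP (66.1 FPKM) was below WT DLP (69.4 FPKM).

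Krt4 (gene 16682, chr15:101918535-101924735) was higher in MYC in AP and DLP and lower in VP. It had 10.2, 20.3 and 53.3 FPKM in WT AP, DLP and VP, and 30.1, 45.9 and 7.09 FPKM in MYC AP, DLP and VP. VP was its highest lobe in WT and its lowest in MYC. The ratio of MYC to WT was 2.96-fold in AP (95% counting interval 2.69 to 3.26, from 501 and 2917 estimated reads), 2.26-fold in DLP (2.13 to 2.40) and 0.133-fold in VP (0.122 to 0.145). Such intervals hold counting error alone, and animals may differ by more. Of a list of 6 other genes of luminal progenitor or proximal duct cells, Cldn10, a claudin of tight junctions, went the same ways in AP and VP, with log2 ratios of 1.28 and -2.44, but had -0.78 in DLP. Over this list, 3 genes were at least 2-fold higher in MYC AP (2.05% of all genes), 2 in MYC DLP (6.46%) and none in MYC VP (6.88%), where Cldn10 was lower (5.95%).

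Krt6a varied more than any other member, with a 66-fold range. It had 7.74, 7.33 and 1.34 FPKM in WT AP, DLP and VP and 11.9, 88.3 and 6.67 FPKM in MYC AP, DLP and VP. MYC DLP stood far above the other 5 libraries. MYC exceeded WT by 12.1-fold in DLP (95% counting interval 11.2 to 13), by 4.98-fold in VP (4.14 to 6.08, from 136 reads in WT) and by 1.53-fold in AP (1.37 to 1.72). In the DLP, Krt6b had 1.65 FPKM (WT) and 18.3 FPKM (MYC), and the log2 ratio of the 2 genes summed was 3.43 in DLP, 1.76 in VP and 0.61 in AP, against 3.42, 1.71 and 0.56 for Krt6a alone. Krt16, a type I keratin that accompanies Krt6a in stressed epidermis, had 47.0 (WT) and 83.5 FPKM (MYC) in DLP but 28.6 (WT) and 12.5 FPKM (MYC) in VP. Krt6a over Krt16 was lowest in WT VP, at 0.0467, and highest in MYC DLP, at 1.06.

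Counted between the mice, 5 of the 10 keratins (Krt4, Krt5, Krt6a, Krt7 and Krt19) were at least 2-fold higher in MYC DLP than in WT DLP, where 6.46% of all genes were, and none was at least 2-fold lower (3.39%). The median log2 ratio of the 10 was 0.786, against 0.0346 over all genes. The count was 2 with equal sums of FPKM without the 20 highest genes: Krt4, Krt5 and Krt7 then had log2 ratios of 0.98, 0.92 and 0.95. The median log2 ratio of all genes was then -0.11. With the average of the Krt8 and Krt18 log2 ratios subtracted, Krt6a alone stayed past 2-fold in DLP, at 3.19, while Krt19 had 0.99, Krt4 0.91, Krt7 0.88 and Krt5 0.85, and in AP Krt19 passed the threshold, at 1.06. In AP, Krt4 was higher (2.05% of all genes) and Krt14 and Krt17 were lower (0.599%), by 2.28-fold and 2.72-fold, while Krt5 was nearly equal (108.9 in WT, 109.2 in MYC). In VP, Krt6a was higher (6.88%) and Krt4 lower (5.95%), and Krt14, Krt15 and Krt17 had log2 ratios of -0.59, -0.60 and -0.72. The medians of the 10 were -0.0205 in AP and -0.262 in VP, against 0.126 and 0.0418 over all genes. The lobes share neither control nor treated libraries, but all libraries of a genotype share 1 mouse.

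**Figure D3:**
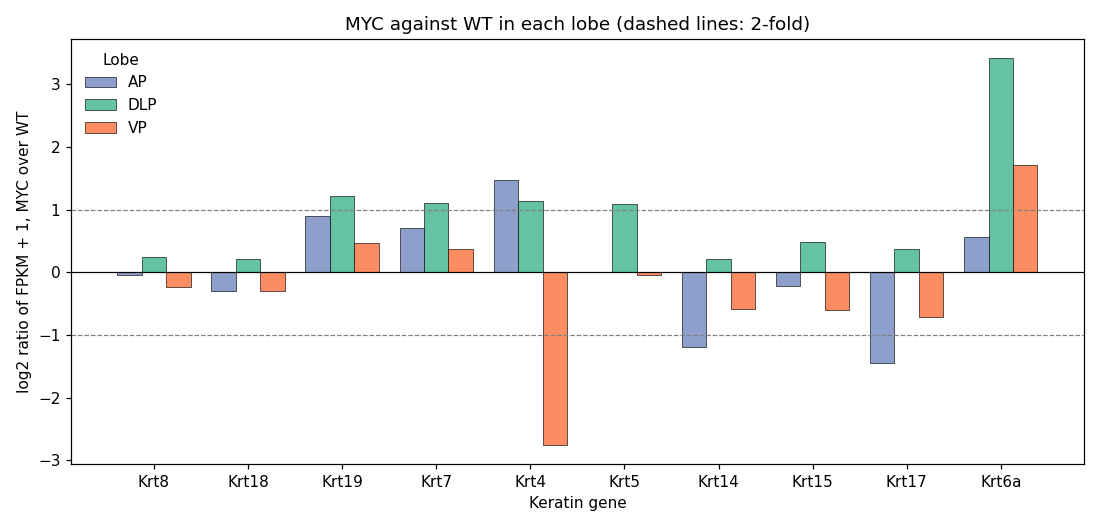
Log2 ratio of FPKM + 1 of MYC over WT (vertical axis) for each keratin, 1 bar per lobe and 1 library per genotype behind each bar, with dashed lines at 2-fold. Krt6a in DLP (3.42) and Krt4 in VP (-2.75) reach farthest in either direction, and the bars of Krt8 and Krt18 stay between -0.29 and 0.25.

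The deposited table lists 55 keratin genes, and the 10 members hold between 95.1% and 98.3% of the summed keratin FPKM of a library. Krt8 and Krt18 together made up 25.1%, 31.2% and 64.5% of the keratin pool in WT AP, DLP and VP and 28.1%, 24.5% and 62.1% in MYC AP, DLP and VP. The 4 basal keratins made up 58.4%, 46.9% and 15.4% in the WT lobes and 39.2%, 42.4% and 11.6% in the MYC lobes. Krt19 alone made up 10.3%, 14.2% and 14.1% in the WT lobes and 24.5%, 22.2% and 22.6% in the MYC lobes, so that all 3 MYC libraries exceeded all 3 WT libraries in its share. The whole pool was between 0.720% (WT DLP) and 1.10% (WT VP) of all FPKM.

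**Figure D4:**
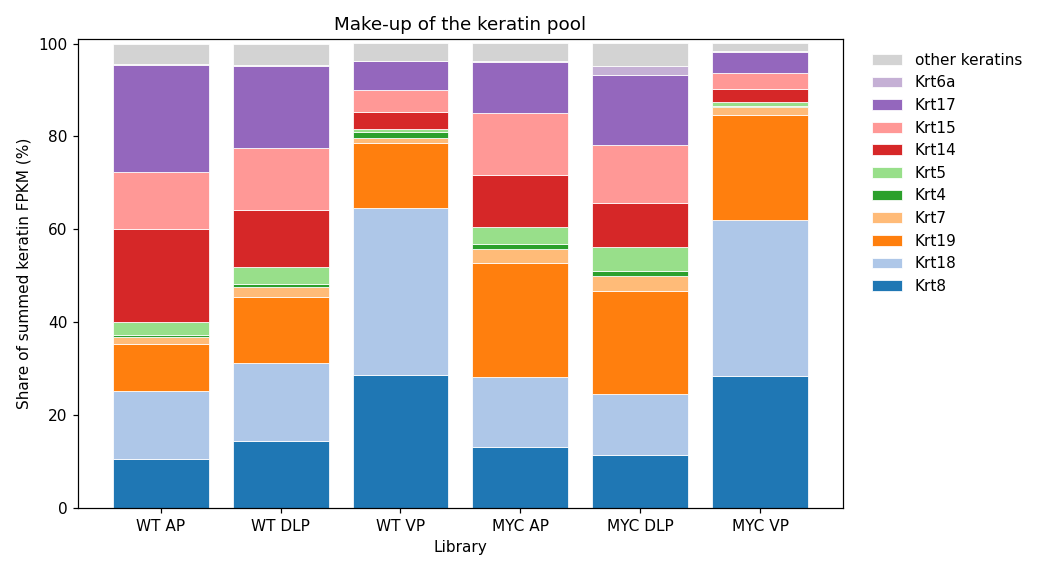
Share of each keratin in the summed keratin FPKM of a library (stacked bars, percent), 1 bar per library. Krt8 and Krt18 take 64.5% and 62.1% in WT VP and MYC VP, and Krt19 takes 22.2% to 24.5% in the MYC libraries against 10.3% to 14.2% in the WT libraries.

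Of the 45 keratins outside the set, 8 had a mean of at least 1 FPKM, and 37 were lower, with a highest single value of 2.31 FPKM. Krt13, the usual type I partner of Krt4 in stratified epithelia of the oesophagus, had log2 ratios of 0.49, 1.58 and 0.45 in AP, DLP and VP, the same direction as Krt4 in AP and DLP and the opposite one in VP. It had 8.26 (WT) and 12.0 FPKM (MYC) in AP, 10.4 and 33.1 FPKM in DLP, and 2.76 and 4.15 FPKM in VP. In VP, Krt23 had 116.3 (WT) and 26.8 FPKM (MYC), with log2 ratios of -0.50, -0.23 and -2.08 in AP, DLP and VP. For Krt75 the log2 ratios in AP, DLP and VP were -1.13, 1.01 and 0.16, and for Krt78 they were 1.97, 1.27 and 0.17. Krt39 had -1.80 in AP, from 7.81 FPKM in WT and 1.52 FPKM in MYC, -0.46 in DLP and -0.57 in VP. Krt80 had log2 ratios of at most 0.52 in size in the 3 lobes.

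Other basal cell genes were set beside the basal keratins. Of a list of 11 basal marker genes that are no keratins, 9 reached the minimum, and 4 of them (Trp63, Dlk2, Jag2 and Aqp3) were at least 2-fold higher in MYC DLP than in WT DLP (6.46% of all genes), with a median log2 ratio over the 9 of 0.773 against 0.0346 over all genes. Trp63 encodes p63, the transcription factor that defines basal cells and controls Krt5 and Krt14. It had 5.79, 3.81 and 3.17 FPKM in WT AP, DLP and VP and 19.2, 13.5 and 0.814 FPKM in MYC AP, DLP and VP. In AP, where Krt14 and Krt17 were lower in MYC, Trp63 had a log2 ratio of 1.57, and its MYC VP value was the lowest of the 6. Aqp3, a water channel of basal cells, had log2 ratios of -1.51, 2.29 and 0.87 in AP, DLP and VP. In AP, Trp63 was called higher (2.05% of all genes) and Aqp3 lower (0.599%), in VP Trp63 was called lower (5.95%), and the medians of the 9 genes were -0.0618 and -0.0582.

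Other luminal genes were set beside Krt8 and Krt18. Of 10 luminal markers, 2 were at least 2-fold lower in MYC VP (5.95% of all genes), among them Tmprss2, a membrane serine protease, with a log2 ratio of -1.96, and 2 were lower in MYC DLP (3.39%), among them Dpp4, a surface peptidase, with -1.73. Foxa1, a pioneer transcription factor of luminal cells, had a log2 ratio of -0.75 in VP. The medians of the 10 markers were -0.216, -0.380 and -0.640 in AP, DLP and VP, and none was at least 2-fold different in AP.

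Markers of other cell types differed by lobe and genotype, and their part in the results was not tested. Summed over 6 fibroblast genes, the level was 1200, 1280 and 648 FPKM in WT AP, DLP and VP and 1360, 698 and 195 FPKM in MYC AP, DLP and VP. Over 6 hematopoietic genes it was 125, 63.1 and 20.4 FPKM in the WT lobes and 140, 255 and 156 FPKM in the MYC lobes, and all 6 were at least 2-fold higher in MYC DLP, the library with the highest Krt6a (6.46% of all genes), 4 in MYC VP (6.88%) and 0 in MYC AP (2.05%). Of the fibroblast genes, Pdgfra and Dcn were called lower in DLP (3.39%) and, with Lum, in VP (5.95%), while Col1a1 and Col3a1 were called higher in DLP (6.46%) and, with Col1a2, in AP (2.05%). Most of the fibroblast sum in each library was Dcn alone, so that the sum mainly follows this gene. Dcn had 1060, 1155 and 582.7 FPKM in WT AP, DLP and VP and 999.3, 453.9 and 156.1 FPKM in MYC AP, DLP and VP. The 6 smooth muscle genes summed to 233, 419 and 358 FPKM in the WT lobes and 373, 245 and 220 FPKM in the MYC lobes, and the 6 endothelial genes to between 24.3 FPKM (WT VP) and 167 FPKM (MYC AP). Of 4 mesothelial genes, Msln had 0.496 (WT) and 23.5 FPKM (MYC) in DLP, Wt1 had 4.12 and 1.43 FPKM there, and Upk3b and Lrrn4 were at most 0.0264 FPKM in both DLP libraries. Of 4 urothelial genes, Upk3a was at most 0.0224 FPKM in the WT libraries and was listed at 1.6, 0.703 and 0 FPKM in MYC AP, DLP and VP. The other 3 did not all go one way. Upk1a had log2 ratios of 1.55, -2.19 and -4.22 in AP, DLP and VP, from 493.0 (WT) to 25.5 FPKM (MYC) in VP, while Upk1b had 0.97, 0.89 and -0.41 and Upk2 had 1.32, 0.92 and 0.04. Upk1a and Upk2 were thus called higher in AP (2.05% of all genes), and Upk1a alone was called lower in DLP (3.39%) and VP (5.95%).

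The genes whose profiles over the 6 libraries lay nearest to the most variable members were found by the root mean square difference of centred log2(FPKM + 1), among the 5360 genes whose mean reached 10 FPKM. For Krt5 the nearest gene that is no keratin was Areg (0.15), which encodes the growth factor amphiregulin, followed by St3gal4 (0.28) and Mgat4b (0.28), and the nearest keratin was Krt13 (0.29). For Krt14 they were Nectin1 (0.17), an adhesion molecule, Fhl2 (0.20) and Casp4 (0.22), with Krt17 (0.32) as the nearest keratin. Krt5 and Krt14 thus did not have each other as nearest keratin, whereas Krt8 and Krt18 were nearest to each other (0.09), ahead of Myo5c (0.11 to Krt8 and 0.13 to Krt18). Nearest to Krt6a were Ly6d (0.50), a surface protein of stratified epithelium, Fhit (0.51) and Anxa8 (0.53), and in DLP Ly6d had 33.7 (WT) and 321.2 FPKM (MYC). Nearest to Krt4 were Mfap4 (0.32), a protein of extracellular microfibrils, Gpx3 (0.49), a secreted glutathione peroxidase, and Mgst1 (0.52). These are descriptions over 6 libraries of 2 mice.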

How the data were processed

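Bulk RNA-seq of 6 prostate libraries was used, 1 per lobe and genotype, with groups from the sample titles. The authors aligned the reads to mm10 with STAR, ran Cufflinks and deposited FPKM per gene. Their methods speak of read counts, but most values have decimals and library sums range from 374085 to 483143, so no count model was run and no p-value computed. The gene annotation is not given in the sources used here. The keratins and lists were chosen with earlier results of these data known.

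From the deposited FPKM, log2 ratios with a pseudocount of 1 were computed as deposited, without rescaling. The 12361 genes whose mean reached 1 FPKM formed the background, with a threshold of 2-fold. Named genes were the members, other keratins above that minimum, the list genes that differed most in VP, and the 3 nearest genes of the 4 most variable members; some list genes are not reported here by name and others were chosen after their values were seen. Depth was estimated from the steps of low FPKM (under 0.3) of genes with 1 exon and 1 transcript over 600 bases, taking a fragment length of 200, and between 51.9% and 61.9% of these values lay within 0.1 of a whole read. Because multiples of the true depth also give whole reads, the lowest depth near the best score was taken. Estimated reads gave exact 95% binomial (Clopper-Pearson) intervals of ratios. Lengths came from GENCODE M1 and promoters from RefSeq (GRCm38.p6). Calls and depth were tested on simulated data. Alternatives were other scalings, a pseudocount of 0.1, other minima, a 4-fold threshold and other sums of keratins. The versions were matplotlib 3.10.9, scipy 1.17.1, pandas 2.3.3 and numpy 2.4.6 under Python 3.11.15.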

Additional observations from a re-analysis of the deposited data

Results flagged for a closer look

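Krt4 was at least 2-fold different between MYC and WT in opposite directions in different lobes. The difference of the log2 ratios of MYC to WT was -4.22 for VP minus AP and -3.89 for VP minus DLP. The values behind them are 10.2 and 30.1 FPKM in WT and MYC AP, 20.3 and 45.9 FPKM in WT and MYC DLP and 53.3 and 7.09 FPKM in WT and MYC VP. The difference between lobes was not tested, as no lobe has replicates.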

How the results depend on the processing

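Each group is 1 library, so that no library could be left out and no paired analysis was possible because each genotype is 1 mouse. Size factors from medians of ratios and a pseudocount of 0.1 changed none of the 90 calls of a member, no setting reversed a call, and summing Krt6a with Krt6b, chosen after seeing the data, changed none of its 3. With equal sums of FPKM, the members higher in MYC DLP than in MYC AP went from 3 to 1, and those higher in MYC VP than in MYC DLP from 2 to 0. Those lower in MYC VP than in MYC AP went from 4 to 6, with Krt17 (-1.22) and Krt6a (-1.06) added. Without the 20 highest genes in the sum, the first count was again 1 and the last was 5. In that setting the members higher in MYC DLP than in WT DLP went from 5 to 2. Equal sums moved the median log2 ratio of all genes from -0.02 to -0.31 for MYC VP against MYC AP. It went from 0.07 to -0.13 for MYC DLP against MYC AP and from -0.07 to -0.16 for MYC VP against MYC DLP. Without the 20 highest genes it went from 0.03 to -0.11 for MYC DLP against WT DLP. No share of all genes called is given for these scalings, so these counts have no background. At 4-fold, 1 member (Krt6a) was higher in MYC DLP than in WT DLP (1.59% of all genes) and in MYC DLP than in MYC AP (0.728%), 1 was higher (1.73%) and 1 lower (1.61%) in WT VP than in WT AP, 6 were lower in MYC VP than in MYC DLP (2.45%) and 1 (Krt4) was lower in MYC VP than in WT VP (0.922%). At 4-fold, 0 members were called in AP between the mice (0.542% of all genes were higher and 0.121% lower). Also, 0 were higher in MYC VP than in WT VP (1.2%) and 0 were higher in MYC VP than in MYC DLP (0.704%). Between lobes, 0 were called for WT VP against WT DLP (0.688% higher, 0.744% lower) and for WT DLP against WT AP (0.704% and 0.227%). For MYC VP against MYC AP it was again 0 (1.58% and 4.51%). With 10 members, counts of 0 are near these shares. Without a minimum FPKM, the share of all genes called in either direction was lower by over 1.5 times in every comparison, at 1.44%, 5.67% and 6.79% instead of 2.65%, 9.85% and 12.8% between the mice in AP, DLP and VP. Between lobes it was 2.80% to 13.3% instead of 5.16% to 25.1%.

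In the order WT AP, WT DLP, WT VP, MYC AP, MYC DLP and MYC VP, the basal to luminal ratio was 0.272, 0.257, 0.0255, 0.281, 0.461 and 0.0292 for Krt5 over Krt8. It was 1.39, 0.719, 0.0982, 0.744, 0.717 and 0.0799 for Krt14 over Krt18, and 2.33, 1.5, 0.239, 1.39, 1.73 and 0.187 with all 4 basal keratins. With the 10 members alone in the pool, Krt8 and Krt18 made up 26.2%, 32.7%, 67.0%, 29.2%, 25.7% and 63.1%. Of the 12 nearest genes named, 10 were the same with a pseudocount of 0.1. Directions of Krt5, Krt8 and Krt19 between WT DLP and WT AP, and of Krt19 between MYC VP and MYC AP, changed sign with the scaling. Depth limits Krt6a in WT VP most.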

Other observations

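Genes that anchor keratin filaments were looked at beside the keratins. Of a list of 20 genes of desmosomes, hemidesmosomes and their laminin, 18 reached the minimum, and of these 1 was at least 2-fold higher in MYC DLP (Pkp1, where 6.46% of all genes were), 1 was at least 2-fold lower in MYC VP (Ppl, where 5.95% were) and none was called in AP. These counts are near the shares over all genes. The medians of the log2 ratios were -0.217, 0.252 and -0.00123 in AP, DLP and VP. Pkp1, a desmosomal plaque protein of stratified epithelium, had 7.86 (WT) and 20.8 FPKM (MYC) in DLP. Ppl, which encodes periplakin, had 18.2 (WT) and 8.39 FPKM (MYC) in VP, and Dst, which encodes the hemidesmosomal plakin that binds basal keratins, had a log2 ratio of -0.73 there. Perp, a desmosomal gene controlled by p63, had log2 ratios of -0.60, -0.37 and -0.78 in AP, DLP and VP.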
